A study of Mus musculus with 25 samples.

Results

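The longest interval of the culture series set astrocytes kept for 14 days in vitro against astrocytes sampled on day 2. Its samples were chosen by their day labels, which put 3 RNA-seq libraries in each group, 6 of the 25 libraries of the series, and every gene of the table was considered. The cells came from the cortex of C57BL/6J mice and had been immunopanned with an antibody to HepaCAM, an adhesion protein of the astrocyte surface. Neither day group carries an inhibitor, HBEGF or withdrawal label, and the sources used here do not state whether their medium held HBEGF. They do not state the age of the animals either, nor whether the 3 libraries of a day came from separate animals, cultures or preparations. A p-value here therefore reflects nothing but the scatter among libraries, and that scatter may be technical. The scatter was estimated within all 9 groups of the 25 libraries, treated groups included, not in these 6 alone. Libraries of day 7, also 3, are described where they show the course between the 2 end points. Growth in a dish, away from neurons, vessels and the other glia of the cortex, limits these cells as a model of astrocytes in tissue.

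Astrocytes of the mature cortex clear glutamate and potassium from around synapses, carry water through aquaporin channels, form a network through gap junctions, and supply other cells with lipid particles and lactate. Astrocytes of the perinatal cortex still divide and carry cytoskeletal and matrix proteins shared with the radial glia from which they descend. Immunopanning takes cells on an antibody-coated dish and can keep them without serum, which otherwise pushes astrocytes towards a dividing, reactive-like state.

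The 6 libraries held 4325729 to 9691449 reads counted to genes. The unit of the table is RPKM (reads scaled by gene length and library size), and the length behind it was the whole gene span with introns, so levels of different genes can be set against each other only per span length. Reads of mitochondrial ribosomal RNA made up 16.1, 12.3 and 15.2% of the counted reads in day 2 replicates 1, 2 and 3 and 21.2, 20.2 and 23.9% in those of day 14. The 2 groups did not overlap in this share. Day 7 replicate 3 stood apart from the other day 7 libraries in cell cycle genes. Its summed RPKM over the mitosis list was 50.2, against 253 and 271 in replicates 1 and 2. Of the astrocyte markers, Slc1a3, Sox9, Aldoc and Hepacam were above 5 RPKM in all 6 libraries, and Gja1, Aqp4 and Slc1a2 above 1 RPKM. S100b did not reach the level needed for testing, and Gfap was at 1.43 to 3.27 RPKM on day 2.

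Over 13850 genes, limma on log2(RPKM + 1) called 3208 at an adjusted p below 0.05, or 23.2% of those tested. Among them 769 were higher on day 14 (5.55%) and 2439 were lower (17.6%). The change reached at least 1 on the log2 scale for 143 of the higher genes (1.03%) and 215 of the lower genes (1.55%). Libraries of the days did not overlap for 4569 genes, which is 33% of all tested. Adding 1 RPKM before taking logs shrinks the fold of weakly expressed genes.

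The balance of higher to lower calls depended on how libraries were scaled. The median log2 change of all tested genes was -0.11 as deposited, and it was -0.25 over the 2926 genes whose mean reached 5 RPKM. Without the mitochondrial genes in the library total, the calls were 1071 higher and 1396 lower, and with median-of-ratios scaling they were 1204 and 1140. Quantile normalization gave 1153 and 1204. All 4 scalings called 746 genes higher and 1104 lower, including 138 of the 143 and 178 of the 215 genes past 1 on the log2 scale. Fits of fewer libraries called fewer genes, 1287 in the 9 libraries of days 2, 7 and 14 alone and 366 in the 6 libraries of days 2 and 14 alone, and list counts fell with them. Changes are otherwise to be read against the median of -0.11. Counts of calls in a gene list are to be read against 5.55% higher and 17.6% lower of all tested genes. The lists were chosen with earlier results of these data known, and several hold genes with the largest changes. Their counts describe the listed genes and are no test of a group.

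**Figure D1:**
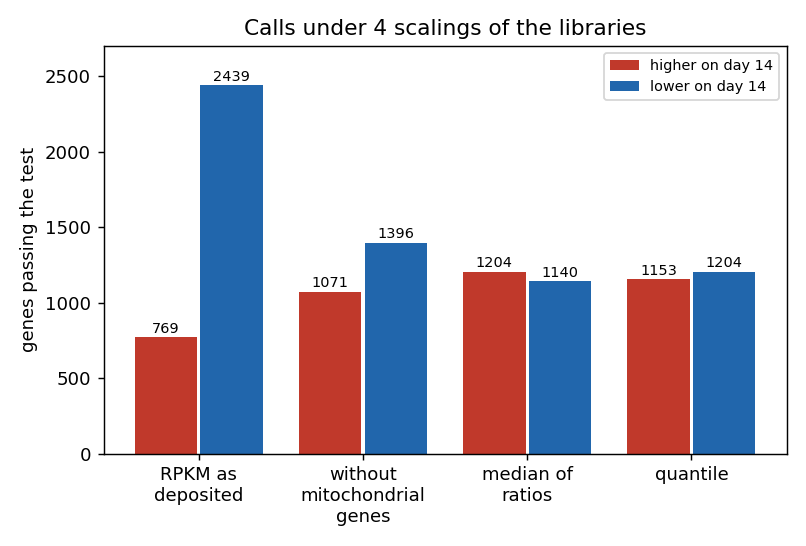
Genes passing the test (vertical axis, number of genes, from 0) that were higher (red) or lower (blue) on day 14, under 4 scalings of the libraries (horizontal axis). With RPKM as deposited, 769 were higher and 2439 lower; with median-of-ratios scaling, 1204 were higher and 1140 lower.

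Day 14 replicate 1 lay furthest from day 2. It held the highest of the 3 day 14 values for 107 of the 143 genes that rose by at least 1 in log2 (74.8%), against 37.5% of all tested genes. It held the lowest value for 153 of the 215 that fell by as much (71.2%), against 41.1% of all tested. Leaving this library out gave 2080 calls, 490 higher and 1590 lower. Leaving out day 2 replicate 2 gave 2162, 551 higher and 1611 lower.

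**Figure D2:**
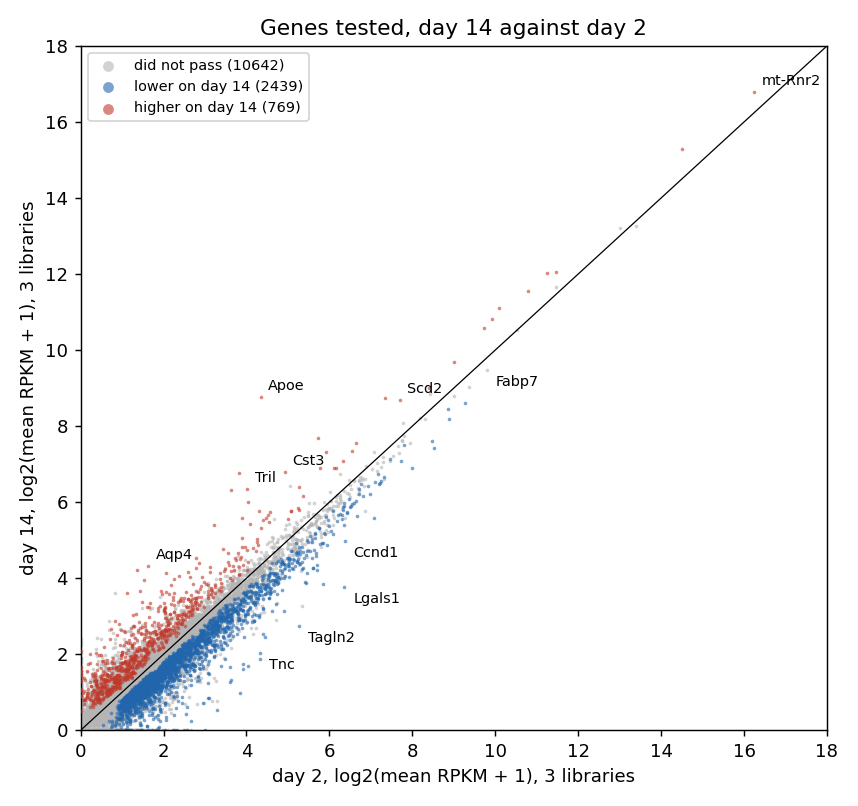
Mean level of each of 13850 genes on day 2 (horizontal axis) and on day 14 (vertical axis), both as log2(mean RPKM + 1) over 3 libraries; red points passed the test and were higher on day 14 (769), blue points were lower (2439), and grey points did not pass. Apoe lies furthest above the line of equal levels, and mt-Rnr2, a mitochondrial ribosomal RNA, has the highest RPKM on both days.

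Most genes of mature astrocyte function that were tested rose. Of 40 listed genes, 32 were measured above the filter, and 23 of these were higher on day 14 and 2 lower, with a median log2 change of 1.04. All 25 calls held under the 4 scalings, and 17 of the higher genes rose by at least 1 in log2. The higher count was 15 in the 9 libraries alone and 4 in the 6 libraries alone. The summed RPKM of the list was 316, 220 and 250 in the day 2 libraries and 710, 533 and 390 in those of day 14, so the groups were apart. In bulk RNA, a larger share of cells of a type and more RNA per cell cannot be told apart.

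Aqp4 encodes the water channel of astrocyte endfeet. It was at 3.72, 1.01 and 1.55 RPKM on day 2 and at 28, 15 and 13.8 RPKM on day 14. The libraries did not overlap, and the log2 change was 2.72 ± 0.27 (SE; adjusted p = 2.10e-06). Mlc1, a membrane protein of the same endfeet and of the perivascular junctions, went from 4.71, 3.79 and 4.01 RPKM to 18.5, 15 and 13.1 RPKM. Its change was 1.67 ± 0.12 (adjusted p = 3.84e-08), and the day 14 libraries were all above those of day 2. Hepacam, the antigen used for the panning and a partner of Mlc1, was at 10.2, 5.71 and 7.20 RPKM on day 2 and at 20.8, 16.1 and 13.4 RPKM on day 14. It rose by 1.04 ± 0.15 in log2 (adjusted p = 1.01e-04), again with no overlap.

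The gap junction gene Gja1 (connexin 43) stood at 3.97, 2.86 and 2.32 RPKM on day 2 and at 12.8, 5.69 and 5.05 RPKM on day 14, a log2 change of 1.04 ± 0.22 (adjusted p = 0.00211). Day 14 replicate 1 was more than the other two libraries of its day, yet all 3 were above day 2. Dio2, the deiodinase that activates thyroid hormone, moved the opposite way. Its day 2 levels of 24.0, 14.5 and 18.3 RPKM compared with 2.37, 1.53 and 4.14 RPKM on day 14, a change of -2.47 ± 0.26 (adjusted p = 3.97e-06). The other gene of the list that fell was Cbs, an enzyme of cysteine synthesis.

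Gfap, the intermediate filament used most often to stain astrocytes, did not pass. Its values were 3.27, 1.43 and 1.96 RPKM on day 2 and 9.73, 2.30 and 2.59 RPKM on day 14, with an adjusted p of 0.223. One day 14 library was high, and the other two lay inside the range of day 2. Sox9, a transcription factor of the whole astrocyte lineage, was at 36.3, 32.5 and 34.4 RPKM on day 2 and at 46.9, 36.1 and 32.6 RPKM on day 14 (log2 change 0.14 ± 0.16, adjusted p = 0.589). The days overlapped for this gene.

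**Figure D3:**
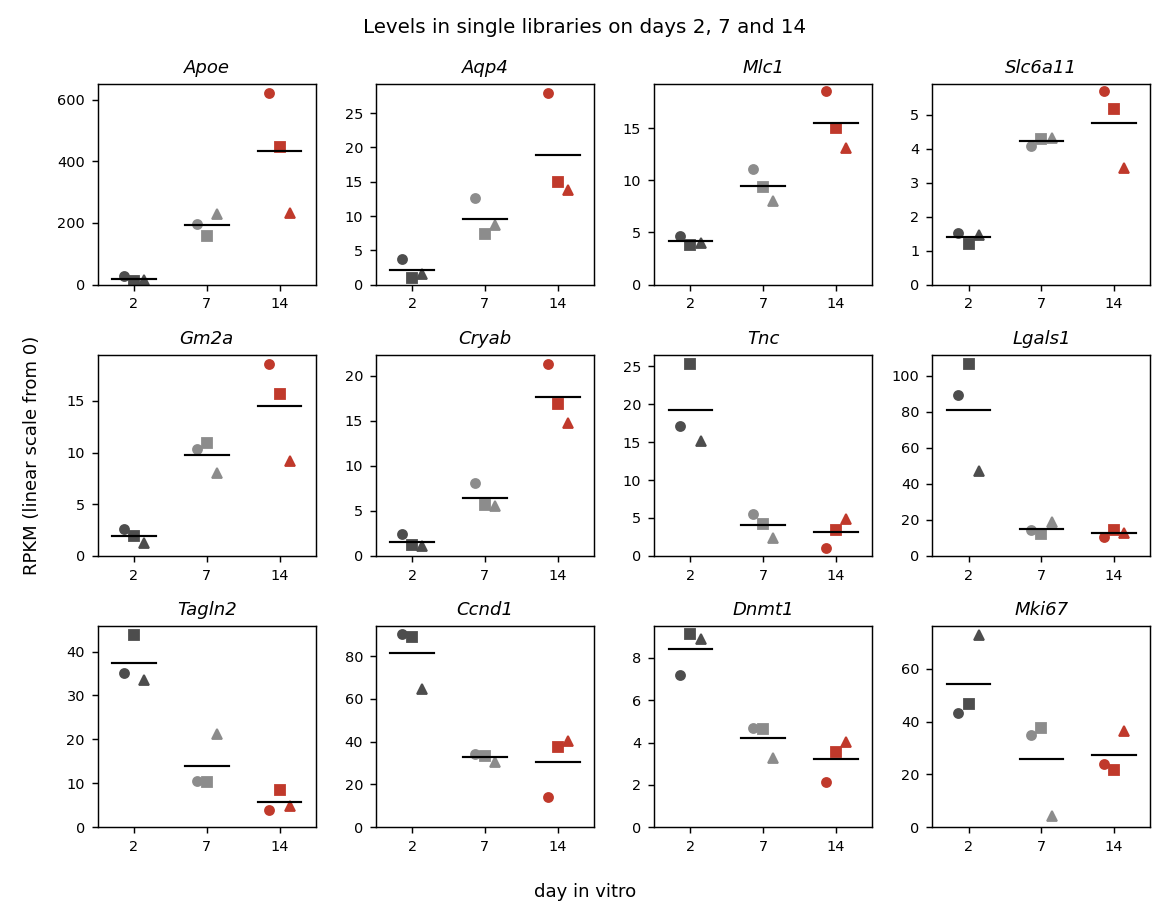
RPKM (vertical axis of each panel, linear from 0) of 12 genes in single libraries on days 2, 7 and 14 in vitro (horizontal axis); circles, squares and triangles are replicates 1, 2 and 3, and bars are means. Day 14 libraries lie above day 2 for Apoe, Aqp4, Mlc1, Slc6a11, Gm2a and Cryab and below it for Tnc, Lgals1, Tagln2, Ccnd1 and Dnmt1; for Mki67, which did not pass the test, day 7 replicate 3 is at 4.41 RPKM.

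Transporters and ion pumps that clear the extracellular space followed the same direction. Of 30 tested genes for glutamate, GABA and ion transport, 19 were higher and 5 lower, with a median of 0.61; in the 9 libraries alone 13 were higher and 2 lower, and in the 6 libraries alone 7 and 0. The summed RPKM was 181 to 219 on day 2 and 251 to 322 on day 14. Slc6a11, the GABA transporter GAT-3 of astrocytes, was at 1.51, 1.2 and 1.45 RPKM on day 2 and at 5.69, 5.17 and 3.43 RPKM on day 14, a log2 change of 1.25 ± 0.13 (adjusted p = 3.11e-06). Slc38a3, which releases glutamine, went from 1.22, 0.749 and 0.978 RPKM to 3.24, 3.20 and 2.68 RPKM, a change of 1.03 ± 0.11 (adjusted p = 3.24e-06). For both genes every day 14 library was above every day 2 library. Abat, the mitochondrial enzyme that degrades GABA, was low on day 2 at 0.287, 0.131 and 0.286 RPKM and reached 2.31, 1.52 and 1.26 RPKM (1.11 ± 0.12, adjusted p = 5.89e-06).

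The main glutamate transporter of forebrain astrocytes, Slc1a2, rose from 2.48, 1.06 and 1.83 RPKM to 7.91, 5.21 and 3.75 RPKM (log2 change 1.23 ± 0.19, adjusted p = 1.83e-04). The glial sodium pump subunit Atp1b2 was at 25.4, 14.3 and 20.9 RPKM on day 2 and at 48.7, 57.3 and 29.5 RPKM on day 14 (1.11 ± 0.20, adjusted p = 7.59e-04). Neither gene overlapped between the days. Against these, Slc38a2, an amino acid transporter of dividing and starved cells, fell from 47.9, 50.9 and 40.6 RPKM to 14.2, 24.0 and 28.6 RPKM, a change of -1.08 ± 0.24 (adjusted p = 0.00326). Slc1a2 is outside the rule for named genes and was picked with its values known.

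The largest change of any gene named by the rule was that of Apoe, the main apolipoprotein of the lipid particles that astrocytes secrete (ENSMUSG00000002985.16, a protein-coding gene on chromosome 7, 19696109 to 19699188, GRCm38). Its levels were 29.3, 13.3 and 15.3 RPKM on day 2, 196, 158 and 230 RPKM on day 7, and 622, 448 and 232 RPKM on day 14. The mean of day 14 was 22.5 times that of day 2, and the log2 change was 4.39 ± 0.30 (adjusted p = 3.80e-08). The lowest day 14 library, replicate 3, was close to the highest of day 7. Of 13 tested genes for apolipoproteins and lipid efflux, 5 were higher and none lower, with a median of 0.14; the higher count was 3 without day 14 replicate 1 and 2 in the 9 libraries alone.

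Abca1, the pump that loads cholesterol onto apolipoprotein E, was at 1.74, 0.995 and 1.79 RPKM on day 2 and at 9.87, 6.42 and 5.62 RPKM on day 14 (log2 change 1.71 ± 0.15, adjusted p = 4.19e-07). Clu, clusterin, another apolipoprotein of astrocytes, went from 4.08, 2.62 and 1.75 RPKM to 18.3, 8.06 and 8.69 RPKM (1.69 ± 0.37, adjusted p = 0.00284). The days were apart for both. The other 2 that rose were the lipoprotein receptor Lrp1 and the lysosomal sterol carrier Npc2.

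Of 25 tested cholesterol genes, 17 were lower and none higher (median -0.62), a count that was 10 with median-of-ratios scaling, 10 without day 14 replicate 1 and 8 in the 9 libraries alone. The summed RPKM of the list was 192, 201 and 202 on day 2 and 110, 140 and 146 on day 14. Msmo1, which removes methyl groups from the sterol ring, was at 12.4, 11 and 9.67 RPKM on day 2 and at 4.0, 5.0 and 4.91 RPKM on day 14, a log2 change of -1.09 ± 0.16 (adjusted p = 1.43e-04). Mvk, the mevalonate kinase, fell from 1.86, 2.03 and 2.24 RPKM to 0.944, 0.917 and 0.830 RPKM (-0.68 ± 0.10, adjusted p = 1.31e-04). Neither overlapped between days. Hmgcs1, the enzyme with the highest RPKM of the list, was at 33.6, 31.9 and 33.5 RPKM and then at 21.9, 24.6 and 23.5 RPKM, with an adjusted p of 0.0688.

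In the fatty acid list, 6 of 14 genes were higher and 2 lower (median 0.34); 4 were higher with the replicate block, 4 without day 2 replicate 2 and 2 in the 9 libraries alone. Scd2, the stearoyl-CoA desaturase of the brain, had the highest RPKM of the list, at 207, 186 and 227 RPKM on day 2 and 440, 422 and 367 RPKM on day 14, a log2 change of 0.98 ± 0.18 (adjusted p = 8.69e-04). Fads2, a desaturase of polyunsaturated fatty acids, went from 3.86, 4.05 and 4.28 RPKM to 10.7, 9.46 and 7.84 RPKM (1.02 ± 0.17, adjusted p = 2.80e-04). Both were higher in all 3 later libraries. Scd1, another stearoyl-CoA desaturase, went from 38.3, 29.3 and 45.1 RPKM to 81.6, 83.9 and 83.4 RPKM (1.14 ± 0.33, adjusted p = 0.0163). Acly, which makes cytosolic acetyl-CoA for both pathways, fell from 3.50, 4.49 and 4.75 RPKM to 2.00, 2.54 and 2.5 RPKM (-0.65 ± 0.12, adjusted p = 0.00103).

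Lysosomal genes also had calls in 1 direction only. Of 29 tested, 15 were higher and none lower, with a median of 0.44, and the higher count was 21 with median-of-ratios scaling, 10 in the 9 libraries alone and 2 in the 6 libraries alone. Gm2a, the activator protein of ganglioside breakdown, was at 2.56, 1.93 and 1.22 RPKM on day 2 and at 18.6, 15.7 and 9.23 RPKM on day 14, a log2 change of 2.39 ± 0.19 (adjusted p = 1.65e-07). Lamp2, a lysosomal membrane protein, rose from 3.75, 2.75 and 3.41 RPKM to 7.73, 6.43 and 5.32 RPKM (0.80 ± 0.11, adjusted p = 4.80e-05). The protease Ctsf went from 1.34, 1.28 and 1.32 RPKM to 5.92, 5.13 and 3.11 RPKM (1.27 ± 0.19, adjusted p = 1.10e-04). None of the 3 overlapped between days, and replicate 3 was the lowest day 14 library in each.

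Among stress and metal-binding genes the heat shock list split, with 6 of 25 higher and 9 lower; the lower count was 5 with median-of-ratios scaling and 5 without day 14 replicate 1. Cryab, a small heat shock protein, rose from 2.47, 1.19 and 1.04 RPKM to 21.3, 16.9 and 14.7 RPKM (log2 change 2.89 ± 0.27, adjusted p = 1.00e-06). Mt2, a metallothionein that buffers zinc and copper, was at 14.3, 7.70 and 12 RPKM and then at 120, 65.4 and 49.0 RPKM (2.62 ± 0.42, adjusted p = 2.42e-04). Selenop, the secreted carrier of selenium, went from 1.53, 0.873 and 1.1 RPKM to 14.8, 11.9 and 7.13 RPKM (2.46 ± 0.18, adjusted p = 5.31e-08). All 3 were higher in every day 14 library. Hsp90aa1, a cytosolic chaperone induced by heat, moved down instead, from 14.1, 16.9 and 15.3 RPKM to 7.24, 7.34 and 9.07 RPKM (-0.89 ± 0.09, adjusted p = 2.17e-06).

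Tril, a co-receptor of Toll-like receptors found on astrocytes, had the smallest spread among the strongest risers (ENSMUSG00000043496.7, chromosome 6, 53815468 to 53820830, GRCm38). It was at 17.1, 14.8 and 13.9 RPKM on day 2, 58.8, 58.3 and 46.2 RPKM on day 7 and 91.5, 80.6 and 69.9 RPKM on day 14. Its log2 change was 2.32 ± 0.11 (adjusted p = 6.18e-10), and the 3 days did not overlap. The other higher genes among the 15 with the largest changes were Wnt5a, Ttyh1, Mt1, Vwa1, Ndrg2, Lrrn1, Cst3 and the mitochondrial tRNA mt-Te. For mt-Te the call rested on few reads: its day 2 values were 9.10, 16.0 and 0 RPKM and its day 14 values 50.6, 16.8 and 55.9 RPKM, and the adjusted p was 0.0899 without day 2 replicate 3, 0.0718 without day 14 replicate 1 and 0.0612 without day 14 replicate 3.

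Of 19 tested glycolysis genes, 4 were higher and 6 lower, and with median-of-ratios scaling 4 were higher and 4 lower. Ldha, the lactate dehydrogenase subunit that favours lactate formation, fell from 34.4, 44.3 and 39.6 RPKM to 12.5, 21.5 and 19.9 RPKM (log2 change -1.12 ± 0.15, adjusted p = 4.44e-05). Ldhb, the subunit that favours pyruvate formation, rose from 4.06, 3.17 and 3.27 RPKM to 10.6, 9.69 and 6.69 RPKM (1.13 ± 0.15, adjusted p = 3.65e-05). Neither overlapped between days.

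The platelet-type phosphofructokinase Pfkp was at 2.46, 2.20 and 1.8 RPKM on day 2 and at 0.384, 0.375 and 0.464 RPKM on day 14, a log2 change of -1.16 ± 0.09 (adjusted p = 2.40e-07). Aldoc, the aldolase of the brain, was at 24.4, 18.4 and 22.6 RPKM and then at 67.0, 44.1 and 36.7 RPKM (1.1 ± 0.18, adjusted p = 2.71e-04). Aldoa, the aldolase of most tissues, was at 62.9, 71.6 and 47.0 RPKM and then at 40.4, 50.2 and 33.4 RPKM, which did not pass (adjusted p = 0.0561).

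Of 52 tested nuclear genes for oxidative phosphorylation, 2 were higher and 1 lower, with a median of 0.07. The median-of-ratios scaling called 12 higher and none lower, so the count depended on the scaling. Ndufa4 and Ndufb2, subunits of the respiratory chain, were the higher genes. Cyc1, cytochrome c1, was the lower one, a call lost under other scalings. The 2 higher calls were lost with no filter, the replicate block, array weights or voom, and in the 9 or the 6 libraries alone. They were also lost without day 2 replicate 3, day 14 replicate 1 or day 14 replicate 2. From the mitochondrial genome, 8 of 10 tested genes were higher, with a median of 0.72. mt-Rnr1, the small ribosomal RNA of the organelle, was at 27707, 19551 and 22538 RPKM on day 2 and at 36209, 38300 and 46571 RPKM on day 14 (log2 change 0.80 ± 0.13, adjusted p = 2.28e-04). None of the 8 calls held under all 4 scalings. Quantile normalization left 1 gene of the list higher and 1 lower, and the fit of 9 libraries alone 1 higher. Another 5 listed genes, of 15, were at 0 RPKM in all 6 libraries.

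Genes of cell division were lower on day 14. The mitosis list held 49 tested genes, and 21 of them were lower and none higher, with a median log2 change of -0.81. All 49 changes were below 0, from -0.29 to -1.32, and for 47 of 49 the days did not overlap, against 33% of all genes. The count of calls was 5 with median-of-ratios scaling, 2 without day 14 replicate 1, 4 without day 2 replicate 2, 6 without day 2 replicate 3, 8 without day 14 replicate 2, 8 with the replicate block, and 7 with a pseudocount of 0.1. It was 38 without day 7 replicate 3, the library that stood apart, 10 in the 6 libraries alone, and 0 when limma was fitted to the 9 libraries of days 2, 7 and 14 alone, where 18 of 49 had an unadjusted p below 0.05. The summed RPKM of the list was 361, 434 and 466 on day 2, 253, 271 and 50.2 on day 7, and 174, 182 and 262 on day 14.

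Mki67, the Ki-67 antigen of cycling cells, was at 43.2, 46.7 and 72.8 RPKM on day 2 and at 24.0, 21.8 and 36.6 RPKM on day 14. The days did not overlap, but the adjusted p was 0.257 for a log2 change of -0.95 ± 0.56, and day 7 replicate 3 was at 4.41 RPKM. Plk4, the kinase that starts centriole duplication, passed with a fall from 4.24, 6.92 and 6.04 RPKM to 1.56, 1.95 and 3.13 RPKM (-1.08 ± 0.22, adjusted p = 0.00162). Smc2, a core subunit of condensin, fell from 5.15, 5.36 and 6.44 RPKM to 1.99, 2.30 and 3.67 RPKM (-0.89 ± 0.23, adjusted p = 0.00940).

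Genes of DNA replication and nucleotide supply were lower too. Of 37 tested genes, 36 were lower and none higher, with a median of -0.76, and 27 of the 36 were lower under all 4 scalings. The count was 23 without day 14 replicate 1, 8 in the 9 libraries alone and 5 in the 6 libraries alone. The summed RPKM was 206, 259 and 224 on day 2 and 72.8, 113 and 135 on day 14. Dnmt1, the maintenance DNA methyltransferase, was at 7.20, 9.15 and 8.89 RPKM on day 2 and at 2.15, 3.54 and 4.01 RPKM on day 14, a log2 change of -1.17 ± 0.15 (adjusted p = 2.50e-05). Rrm2, the regulated subunit of ribonucleotide reductase, went from 39.0, 46.7 and 39.6 RPKM to 9.20, 14.1 and 18.8 RPKM (-1.56 ± 0.33, adjusted p = 0.00217). For both genes day 14 replicate 1 was the lowest library and all 3 were below day 2. The gene of the list that did not pass was Rfc3, a subunit of the clamp loader.

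Promoters of the 2 lists are shown because their members lay lower on day 14 in common and cell cycle genes are known to carry the elements searched. RefSeq promoter windows (GRCm38.p6, 250 bases before to 50 after a start site) matched 42 of 50 mitosis genes and 35 of 43 replication genes. The cell cycle homology element TTTGAA, searched on both strands, was in the window of 33 of the 42 mitosis genes (78.6%), against 20.2% of all 27025 genes with a window. The box CCAAT was in 73.8% of the mitosis genes and 57.1% of the replication genes, against 41.1% of all. It was also in 16 of the 18 cholesterol genes with a window (88.9%), so it was not particular to the cell cycle lists. An E2F sequence, TTTCCCGC or TTTGGCGC on either strand, was in 13 of the 35 replication genes (37.1%), against 1.8% of all. Of the 13850 tested genes only 6308 had a window, too few to stand for all of them; among these the E2F sequence was in 3.92%, TTTGAA in 13.7% and CCAAT in 43.1%. The shares of the lists cover all listed genes with a window, called or not. Among the 94 genes with a window called lower by at least 1 in log2, TTTGAA was in 17%, CCAAT in 43.6% and the E2F sequence in 6.38%. Among the 78 called higher by as much, the shares were 12.8, 37.2 and 2.56%. The motifs share no more than short ends and were searched independently. A match is a description of the window, not a binding site.

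For replication, the 200 bases before the RefSeq start are given for the 3 genes with the smallest p among those that fell and hold an E2F match there: Mcm6 at chr1:128359706-128359905 (minus strand), Gins3 at chr8:95633359-95633558 (plus strand) and Mcm5 at chr8:75109309-75109508 (plus strand). Shown are starts no further than 150 bases from the outermost start in GENCODE, a condition set after the windows were seen. Each sequence runs 5′ to 3′ on the gene's strand, and capitals mark the E2F sequence or its reverse complement.
Mcm6: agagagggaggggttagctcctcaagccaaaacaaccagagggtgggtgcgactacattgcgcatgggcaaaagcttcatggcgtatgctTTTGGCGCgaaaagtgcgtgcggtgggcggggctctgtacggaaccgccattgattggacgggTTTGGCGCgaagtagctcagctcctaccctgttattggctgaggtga
Gins3: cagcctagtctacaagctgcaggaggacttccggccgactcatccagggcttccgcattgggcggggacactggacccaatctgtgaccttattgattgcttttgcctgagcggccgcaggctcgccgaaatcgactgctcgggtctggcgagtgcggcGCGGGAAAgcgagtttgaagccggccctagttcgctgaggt
Mcm5: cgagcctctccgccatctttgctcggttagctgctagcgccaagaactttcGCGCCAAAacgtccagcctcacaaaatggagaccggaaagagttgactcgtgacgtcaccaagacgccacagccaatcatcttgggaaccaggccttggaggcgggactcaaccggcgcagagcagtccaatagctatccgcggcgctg

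Mcm6 and Mcm5 are subunits of the replicative helicase, and Gins3 is part of the complex that activates it. Mcm6 went from 5.83, 8.47 and 7.28 RPKM on day 2 to 1.98, 3.16 and 3.79 RPKM on day 14 (log2 change -1.06 ± 0.18, adjusted p = 4.60e-04). Mcm5 went from 5.30, 6.80 and 6.32 RPKM to 1.74, 3.10 and 4.04 RPKM (-0.89 ± 0.19, adjusted p = 0.00237), and Gins3 from 1.07, 1.52 and 1.19 RPKM to 0.567, 0.492 and 0.527 RPKM (-0.56 ± 0.11, adjusted p = 0.00100). None overlapped between days.

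For mitosis, the same stretch is given for Smc2 at chr4:52439021-52439220 (plus strand), Bub3 at chr7:131560170-131560369 (plus strand) and Ncapg at chr5:45669725-45669924 (plus strand), the 3 genes with the smallest p that fell and hold TTTGAA there. Capitals mark the homology element and the box, each in either orientation.
Smc2: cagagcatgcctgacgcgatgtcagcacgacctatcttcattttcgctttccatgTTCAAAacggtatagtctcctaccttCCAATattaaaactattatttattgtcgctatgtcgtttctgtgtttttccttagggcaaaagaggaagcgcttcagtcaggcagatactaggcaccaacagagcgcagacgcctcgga
Bub3: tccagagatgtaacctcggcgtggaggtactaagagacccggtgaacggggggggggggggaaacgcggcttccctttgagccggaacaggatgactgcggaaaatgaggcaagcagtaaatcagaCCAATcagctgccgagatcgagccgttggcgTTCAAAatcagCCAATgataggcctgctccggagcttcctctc
Ncapg: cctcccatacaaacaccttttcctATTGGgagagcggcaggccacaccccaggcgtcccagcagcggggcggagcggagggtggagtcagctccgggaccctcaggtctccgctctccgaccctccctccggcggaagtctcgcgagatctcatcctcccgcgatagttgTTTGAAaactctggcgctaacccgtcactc

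Bub3 is a spindle checkpoint protein and Ncapg a condensin subunit. Bub3 was at 10.9, 13.9 and 10.7 RPKM on day 2 and at 7.56, 8.03 and 8.59 RPKM on day 14 (log2 change -0.50 ± 0.14, adjusted p = 0.0144), a call lost under other scalings. Ncapg was at 2.67, 2.67 and 3.32 RPKM and then at 1.02, 1.08 and 1.55 RPKM (-0.82 ± 0.25, adjusted p = 0.0255), also lost under other scalings. In Bub3 the element lies between a pair of CCAAT boxes, in Smc2 it lies upstream of 1, and in Ncapg the box is far upstream in reverse.

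Of 19 tested cyclins and other G1 regulators, 13 were lower and 2 higher. The lower count was 8 under all 4 scalings, and the 9 libraries alone gave 4 lower and 0 higher. Ccnd1, cyclin D1, which carries growth factor signals into the cell cycle, was at 90.3, 89.1 and 64.9 RPKM on day 2, 34.3, 33.1 and 30.5 RPKM on day 7 and 14.1, 37.4 and 40.5 RPKM on day 14. Its log2 change was -1.50 ± 0.27 (adjusted p = 6.03e-04), and day 14 replicate 1 was well below the other two. E2f1, the transcription factor of S-phase genes, fell from 1.78, 2.41 and 1.90 RPKM to 0.257, 0.786 and 0.866 RPKM (-0.90 ± 0.15, adjusted p = 2.76e-04). The higher genes were Cdkn1c, an inhibitor of cyclin-dependent kinases, and Rbl2, a pocket protein of quiescent cells; neither of their calls was kept without day 14 replicate 1.

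Egfr, the receptor of EGF and HBEGF, was slightly higher, at 4.01, 3.94 and 6.32 RPKM on day 2 and 8.82, 6.59 and 6.32 RPKM on day 14 (log2 change 0.53 ± 0.16, adjusted p = 0.0208), where the lowest day 14 library was about level with the highest of day 2. Of 6 tested genes of the EGF receptor family and its ligands, 2 were called higher, Egfr and Lrig1. That count was 1 with the replicate block, without day 2 replicate 1 or 2, or without day 14 replicate 1. It was 0 in the 9 and in the 6 libraries alone, so the call of Egfr was lost there. Hbegf, a ligand of this receptor, was at 12.9, 13.2 and 5.18 RPKM and then at 2.79, 4.16 and 4.80 RPKM, which did not pass (-1.14 ± 0.47, adjusted p = 0.0920). Of 21 tested feedback and output genes of the ERK pathway, 12 were lower and 1 higher; median-of-ratios scaling gave 8 lower and 3 higher, and the count of lower genes was 8 without day 14 replicate 1 and 6 in the 9 libraries alone. Dusp4, a phosphatase that switches ERK off, fell from 5.92, 4.70 and 3.61 RPKM to 0.819, 1.48 and 1.26 RPKM (-1.39 ± 0.19, adjusted p = 6.76e-05). Phlda1 went from 19.7, 27.9 and 15.4 RPKM to 3.80, 4.84 and 4.76 RPKM (-1.97 ± 0.20, adjusted p = 3.48e-06), and neither gene overlapped between days. Spry2, Spred1 and Etv5, other outputs of this pathway, did not pass.

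Trp53 itself, the gene of P53, fell from 11, 14.4 and 13.0 RPKM to 5.61, 8.12 and 7.10 RPKM (log2 change -0.80 ± 0.12, adjusted p = 1.69e-04), with no overlap. Of 21 tested genes in the P53 list, 6 were lower and none higher, and 2 of the 6 held under all scalings, Trp53 and Plk2. The count of lower genes was 2 without day 2 replicate 2, 3 without day 2 replicate 1 and 2 without day 14 replicate 1. It was 1 in the 9 libraries alone and 0 in the 6 libraries alone. Of all tested genes, 17.6% were lower as deposited. Cdkn1a, the P53 target that arrests the cycle, was at 34.6, 33.5 and 20.4 RPKM on day 2 and at 7.56, 22.6 and 16.8 RPKM on day 14 (-0.96 ± 0.30, adjusted p = 0.0293). The days overlapped for Cdkn1a, and its call and that of Mdm2 were lost under other scalings.

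**Figure D4:**
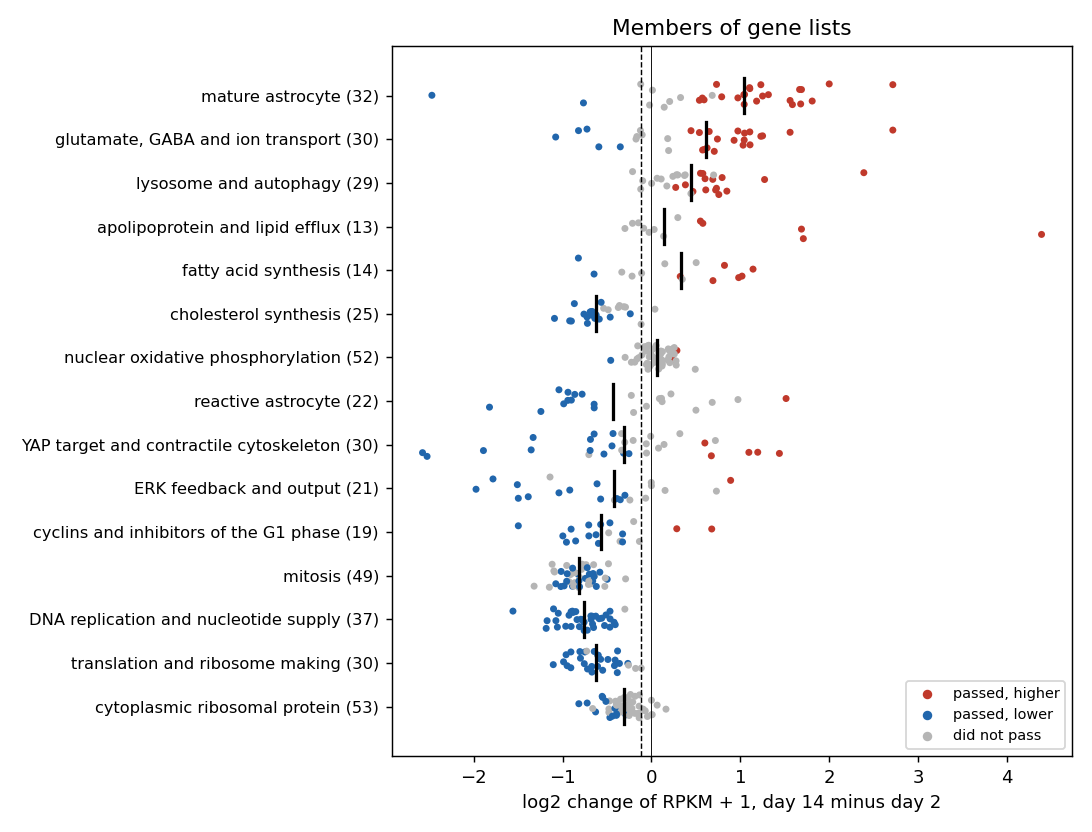
Log2 change of RPKM + 1, day 14 minus day 2 (horizontal axis), of the tested members of 15 gene lists (rows, number tested in brackets; vertical scatter is only for display). Red points passed the test as higher, blue as lower and grey did not pass; black bars are list medians, and the dashed line is the median of all tested genes, -0.11. The bars run from 1.04 for mature astrocyte genes to -0.81 for mitosis.

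The largest falls among genes chosen by size, with at least 5 RPKM on day 2, were of Hmga1b, Mir8100, Tagln2, Lgals1, Dio2, Thbd, Tnc, Gng3, F2rl2, Map1b, Phlda1, Tubb6, Clcf1, Ier3 and Akap12. Hmga1b, a member of the high mobility group family of chromatin proteins that has near copies, was at 17.0, 19.3 and 4.12 RPKM on day 2 and at 0.736, 0.858 and 1.32 RPKM on day 14 (log2 change -2.65 ± 0.53, adjusted p = 0.00137). Map1b, a microtubule-associated protein of growing neural cells, went from 6.06, 7.22 and 6.89 RPKM to 0.442, 0.611 and 0.836 RPKM (-2.25 ± 0.20, adjusted p = 8.02e-07). Both were apart between days, although day 2 replicate 3 was low for Hmga1b. Clcf1, a cytokine of the interleukin 6 family, fell from 9.61, 7.50 and 5.12 RPKM to 1.02, 1.18 and 1.84 RPKM (-1.82 ± 0.37, adjusted p = 0.00182). Akap12, a scaffold for protein kinase A, fell from 10.1, 11.6 and 8.90 RPKM to 1.01, 3.44 and 3.46 RPKM (-1.71 ± 0.24, adjusted p = 7.30e-05). Mir8100 was at 0 RPKM in 2 day 14 libraries and lies within Adam19, and its call was lost without day 2 replicate 3 or without day 14 replicate 1 or 2.

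Of 30 tested cytoskeletal and contractile genes, 13 were lower and 5 higher. The list holds Tagln2, Lgals1 and Tubb6, which are among the largest falls given above. Median-of-ratios scaling gave 8 lower and 7 higher, so the balance depended on the scaling. Lgals1, galectin-1, had day 2 levels of 89.4, 107 and 47.0 RPKM and day 14 levels of 10.6, 14.3 and 12.8 RPKM, a log2 change of -2.52 ± 0.25 (adjusted p = 2.59e-06). Tagln2, an actin-binding protein, went from 35.1, 43.8 and 33.4 RPKM to 3.86, 8.37 and 4.78 RPKM (-2.58 ± 0.27, adjusted p = 4.49e-06). The days were far apart for both. Tpm4, a tropomyosin of actin filaments, fell from 14.9, 19 and 17.8 RPKM to 4.78, 7.27 and 6.89 RPKM (-1.33 ± 0.13, adjusted p = 2.10e-06). The 5 that were higher were Acta2, Myl9, Tagln, Amotl2 and Ctgf, of which the first 3 are smooth muscle proteins.

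Genes linked to reactive astrocytes were lower more often than higher. Of 22 tested, 11 were lower and 1 higher; 10 were lower under all scalings, and 10 without day 14 replicate 1. Cd44, the hyaluronan receptor, was at 3.0, 2.56 and 1.71 RPKM on day 2 and at 0.638, 0.811 and 0.666 RPKM on day 14 (log2 change -0.99 ± 0.11, adjusted p = 9.78e-06). Ptx3, a secreted pentraxin, fell from 2.27, 2.18 and 1.25 RPKM to 0.355, 0.172 and 0.112 RPKM (-1.24 ± 0.17, adjusted p = 6.06e-05). The gene that rose was Cp, the copper-carrying ceruloplasmin, from 0.471, 0.326 and 0.306 RPKM to 3.50, 2.85 and 2.44 RPKM (1.52 ± 0.13, adjusted p = 3.02e-07). None of these 3 overlapped between days. Vim, vimentin, a further member, went from 203, 239 and 192 RPKM to 151, 123 and 130 RPKM (-0.64 ± 0.12, adjusted p = 9.63e-04).

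The extracellular matrix list was evenly divided, with 7 of 21 higher and 7 lower, and all 14 calls held under the scalings. Tnc, tenascin C of the immature brain matrix (ENSMUSG00000028364.15, chromosome 4, 63959785 to 64047015, GRCm38), fell from 17.1, 25.3 and 15.1 RPKM to 1.06, 3.44 and 4.81 RPKM (log2 change -2.39 ± 0.33, adjusted p = 5.94e-05). Vcan, versican, was at 2.19, 2.17 and 2.28 RPKM and then at 0.787, 0.641 and 0.608 RPKM (-0.94 ± 0.07, adjusted p = 1.99e-07). Bcan, brevican, another proteoglycan of the same family, rose instead from 13.0, 10.6 and 13.2 RPKM to 22.3, 25.6 and 18 RPKM (0.79 ± 0.13, adjusted p = 2.87e-04). Among inhibitors of metalloproteinases, Timp2, Timp3 and Timp4 were higher and Timp1, counted in the reactive list, was lower. The proteinases that passed, Mmp2, Mmp14 and Adamts1, were lower. Timp3 went from 0.478, 0.416 and 0.395 RPKM to 2.91, 2.91 and 1.79 RPKM (1.29 ± 0.09, adjusted p = 5.31e-08).

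Radial glia and immature cell genes were mixed. Of 22 tested, 9 were lower and 2 higher, and median-of-ratios scaling gave 5 lower and 4 higher. Fabp7, the brain lipid-binding protein of radial glia, had the highest RPKM of the list, at 955, 877 and 829 RPKM on day 2 and 594, 799 and 735 RPKM on day 14, and it did not pass (log2 change -0.33 ± 0.14, adjusted p = 0.10). Cd24a, a surface protein of young neural cells, fell from 47.4, 31.5 and 46.9 RPKM to 14.1, 15.2 and 11.5 RPKM (-1.54 ± 0.12, adjusted p = 1.85e-07). Sox11 went from 28.3, 30.9 and 33.7 RPKM to 17.3, 19.4 and 19.8 RPKM (-0.69 ± 0.09, adjusted p = 6.02e-05). Cd24a and Sox11 did not overlap between days. The higher genes were Sox4 and Ptprz1, and the progenitor factor Sox2 did not pass, with a change of -0.27.

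For signals that pattern the brain, calls are given for single genes, and whole pathways were not tested. In the Wnt list, 4 of 15 were higher and 1 lower. Wnt5a, a ligand of the branch that does not act through beta-catenin, rose from 1.13, 1.98 and 1.93 RPKM to 12, 10.0 and 12.8 RPKM (log2 change 2.24 ± 0.19, adjusted p = 3.00e-07). Sfrp1, a secreted Wnt antagonist (ENSMUSG00000031548.7, chromosome 8, 23411502 to 23449632, GRCm38), fell from 2.22, 2.56 and 2.57 RPKM to 0.471, 0.449 and 0.529 RPKM, a change of -1.22 ± 0.07 (adjusted p = 4.49e-09). The days were well apart for both, and the spread of Sfrp1 within a day was small. Axin2, a general target of beta-catenin, had a change of -0.22 and did not pass.

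In the BMP, Notch and Id list, 3 of 16 were higher and 2 lower, of which 1 was lower under all scalings. Of all tested genes, 5.55% were higher and 17.6% lower. The Notch ligand Jag1 fell from 2.71, 2.65 and 2.69 RPKM to 0.425, 1.08 and 0.798 RPKM (log2 change -1.08 ± 0.12, adjusted p = 5.81e-06), while the ligand Dll1 rose from 2.19, 2.40 and 3.28 RPKM to 8.75, 5.61 and 3.99 RPKM (0.93 ± 0.21, adjusted p = 0.00307). In the IGF list, 5 of 9 were lower and 1 higher. Insr, the insulin receptor, was at 2.52, 2.35 and 2.49 RPKM and then at 1.2, 1.14 and 1.27 RPKM (-0.65 ± 0.05, adjusted p = 3.02e-07). Igfbp4, an IGF-binding protein, rose from 6.95, 5.98 and 4.87 RPKM to 10.4, 24.3 and 20.5 RPKM (1.42 ± 0.31, adjusted p = 0.00278), with replicate 1 the lowest on day 14.

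Genes for making ribosomes and starting translation were lower in 26 of 30 tested, with none higher and a median of -0.62; the count was 18 with median-of-ratios scaling, 17 without day 14 replicate 1, 16 without day 2 replicate 2 and 10 in the 9 libraries alone. Npm1, nucleophosmin of the nucleolus, fell from 26.9, 36.1 and 31.4 RPKM to 12.9, 16.6 and 16.5 RPKM (log2 change -0.99 ± 0.12, adjusted p = 1.43e-05). Nop56, which guides methylation of ribosomal RNA, fell from 20.1, 23.6 and 22.9 RPKM to 6.43, 12 and 11.9 RPKM (-1.1 ± 0.17, adjusted p = 2.05e-04). Both were lower in all 3 day 14 libraries. Of 53 tested ribosomal protein genes, 12 were lower (median -0.31), against 17.6% lower of all tested. Only Rpl9 was lower under all 4 scalings, and 1 was lower without day 14 replicate 1 and 0 without day 2 replicate 2. Of 28 endoplasmic reticulum genes, 11 were lower and none higher as deposited, while median-of-ratios scaling gave 8 lower and 3 higher. Hspa5, the chaperone BiP, went from 171, 152 and 129 RPKM to 64.8, 99.1 and 115 RPKM (-0.72 ± 0.17, adjusted p = 0.00453).

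Smaller lists added single genes. In the circadian list, 7 of 15 were higher and 2 lower. Bhlhe41, a clock repressor, rose from 1.73, 1.43 and 0.979 RPKM to 7.32, 5.32 and 4.43 RPKM (log2 change 1.48 ± 0.16, adjusted p = 5.50e-06), and Bhlhe40 from 12.9, 11.9 and 17.0 RPKM to 23.6, 30.05 and 27.7 RPKM (0.92 ± 0.15, adjusted p = 3.51e-04). Among 15 synapse regulators and engulfment genes, 5 were higher and 1 lower, with 4 of the 5 higher under all scalings and 3 without day 14 replicate 1. Among 14 immediate early genes 1 was higher and 4 lower, against 5.55% and 17.6% of all tested, and 2 were lower without day 14 replicate 1. In the MHC class I and interferon list, 2 of 16 were higher (5 with median-of-ratios scaling), B2m, the light chain of MHC class I, and Ifi27. B2m was at 14.5, 14.2 and 9.89 RPKM and then at 27.2, 22.9 and 22.6 RPKM (0.88 ± 0.15, adjusted p = 3.72e-04). Of 3 complement genes tested, C4b was higher, a call lost under other scalings and without day 14 replicate 1. The motile cilium list had 1 of 13 higher and 1 lower, the latter lost under other scalings. Of 16 primary cilium genes, 1 was higher and 4 lower, against 17.6% lower of all tested, and 1 was lower with median-of-ratios scaling or without day 2 replicate 2.

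Replication-dependent histone genes showed 4 of 24 higher and none lower, although their median was -0.40. With the replicate block 3 were higher and 4 lower; 4 were lower without day 2 replicate 3, 5 without day 7 replicate 3 and 2 without day 7 replicate 2, and 2 were higher without day 2 replicate 2 or day 14 replicate 1. Hist1h1c rose from 12.4, 8.52 and 8.30 RPKM to 37.3, 22 and 19.7 RPKM (log2 change 1.32 ± 0.27, adjusted p = 0.00181). Hist1h2bc went from 0.876, 0.875 and 1.11 RPKM to 3.76, 3.03 and 2.11 RPKM (1.0 ± 0.18, adjusted p = 6.89e-04). Both were apart between days. These genes are near copies of each other, and reads may have been shared among them, so their values are uncertain.

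Markers of other cell types were read beside these results. Neuron genes summed to 24.0, 23.2 and 29.1 RPKM on day 2 and to 9.06, 8.04 and 7.81 RPKM on day 14, and 3 of 9 tested were lower and 1 higher. Gng3, a G protein subunit of neurons, fell from 15.1, 12.3 and 14.7 RPKM to 2.26, 1.81 and 2.14 RPKM (log2 change -2.29 ± 0.21, adjusted p = 8.02e-07), and Nefl, a neurofilament, from 2.68, 2.04 and 1.41 RPKM to 0.0286, 0.170 and 0.0631 RPKM (-1.47 ± 0.20, adjusted p = 5.07e-05). Gng3, which overlaps a neighbouring gene, was the largest part of each day 2 sum. In 27 of the 30 neuron genes the mean was under 1 RPKM. Since RPKM was divided by the gene span, a low value in a long gene need not mean few reads. The sums of this and the following lists therefore weigh short genes more. Microglia genes summed to 9.12 to 10.0 RPKM and then to 6.43 to 7.16 RPKM, with 23 of 25 under 1 RPKM and 4 at 0 in all 6 libraries. Lyz2, lysozyme of macrophages, was the 1 of 6 that fell. Pericyte and fibroblast genes summed to 5.07 to 8.65 RPKM and then to 9.89 to 18.2 RPKM, where Acta2 and Myl9 were the 2 of 6 that rose, with 16 of 19 under 1 RPKM.

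Oligodendrocyte precursor genes summed to 324 to 408 RPKM on day 2 and to 344 to 422 RPKM on day 14. Nearly all of this came from Olig1, at 253, 209 and 190 RPKM and then at 304, 274 and 231 RPKM (log2 change 0.31 ± 0.14, adjusted p = 0.134), and from Olig2, at 136, 134 and 121 RPKM and then at 95.8, 141 and 109 RPKM. Of 11 tested, 2 were lower, Gpr17 and Vcan, and 1 higher. Oligodendrocyte genes gave no call among 5 tested (1 with median-of-ratios scaling), endothelial genes none for the 1 tested, and ependymal and choroid genes 1 of 4, Foxj1. The call of Foxj1 was lost with the replicate block, array weights or no filter, in the 9 or the 6 libraries alone, and without day 2 replicate 3, day 14 replicate 1 or day 14 replicate 3. The part that other cells or mitochondrial reads had in the changes above was not tested.

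Day 7 lay between the end points for most of the strongest changes. Of the 143 genes that rose by at least 1 in log2, the day 7 mean was between those of days 2 and 14 for 129, past day 14 for 10 and on the other side of day 2 for 4. By day 7 the median gene had made 69.3% of its change (interquartile range 56.5 to 85.3%). Of the 215 that fell, 189 were between, 25 past day 14 and 1 on the other side, with a median of 75.7% (61.5 to 89.7%). The steps differ in length, and both use the day 7 libraries. The genes were picked by their day 2 and day 14 values, which also enter the percentages. This choice favours a day 7 mean between the end points, and the share over all tested genes was not computed.

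Whether the steps differed was tested as the change from day 7 to 14 minus the change from day 2 to 7. The test called 76 genes, or 0.549%, of which 31 had a positive and 45 a negative difference. The count was 10 with replicate number as a block, 21 without day 7 replicate 2, 217 without day 14 replicate 1, and 0 when limma was fitted to the 9 libraries of the time course alone, where 1036 had an unadjusted p below 0.05, so single genes are given with this limit.

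F2rl2, a thrombin-cleaved receptor, had completed its fall by day 7. It was at 6.59, 9.61 and 6.56 RPKM on day 2, 0.725, 0.707 and 0.593 RPKM on day 7 and 0.661, 0.474 and 1.23 RPKM on day 14, with a step difference of 2.41 (adjusted p = 8.67e-04). Thbd, thrombomodulin, which binds thrombin, followed the same course from 4.85, 6.96 and 4.10 RPKM to 0.434, 0.112 and 0.335 RPKM and 0.241, 0.102 and 0.178 RPKM (step difference 2.13, adjusted p = 0.00196). Lgals1 and Tubb4b, a beta-tubulin, were also level between days 7 and 14. Tubb4b was at 39.3, 45.6 and 35.5 RPKM, then at 19, 21.6 and 15.9 RPKM and last at 15.9, 17.4 and 21.6 RPKM (step difference 1.02, adjusted p = 0.0438).

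The genes described next had a negative difference, with their highest mean on day 7. Hes5, a Notch target of neural progenitors, was at 1.78, 0.601 and 1.91 RPKM on day 2, 6.69, 9.20 and 16.5 RPKM on day 7 and 7.13, 4.55 and 1.83 RPKM on day 14 (step difference -3.39, adjusted p = 0.0438), and days 2 and 14 overlapped. Txnip, the glucose-induced inhibitor of thioredoxin, was at 2.92, 2.55 and 4.65 RPKM, then at 17.4, 16.7 and 26.1 RPKM and last at 20.8, 6.81 and 5.64 RPKM (-3.26, adjusted p = 0.0139). For Txnip, day 14 replicate 1 lay within the range of day 7 and the other two were lower. Nlgn3, an adhesion protein of synapses, went from 1.68, 1.31 and 1.76 RPKM to 3.84, 4.37 and 4.19 RPKM and then to 3.58, 3.46 and 2.66 RPKM (-1.28, adjusted p = 8.67e-04). The noncoding RNA Miat showed the same course at 1.24, 1.37 and 2.09 RPKM, 5.50, 5.32 and 7.69 RPKM and 6.41, 3.28 and 2.77 RPKM (-2.01, adjusted p = 0.0107).

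**Figure D5:**
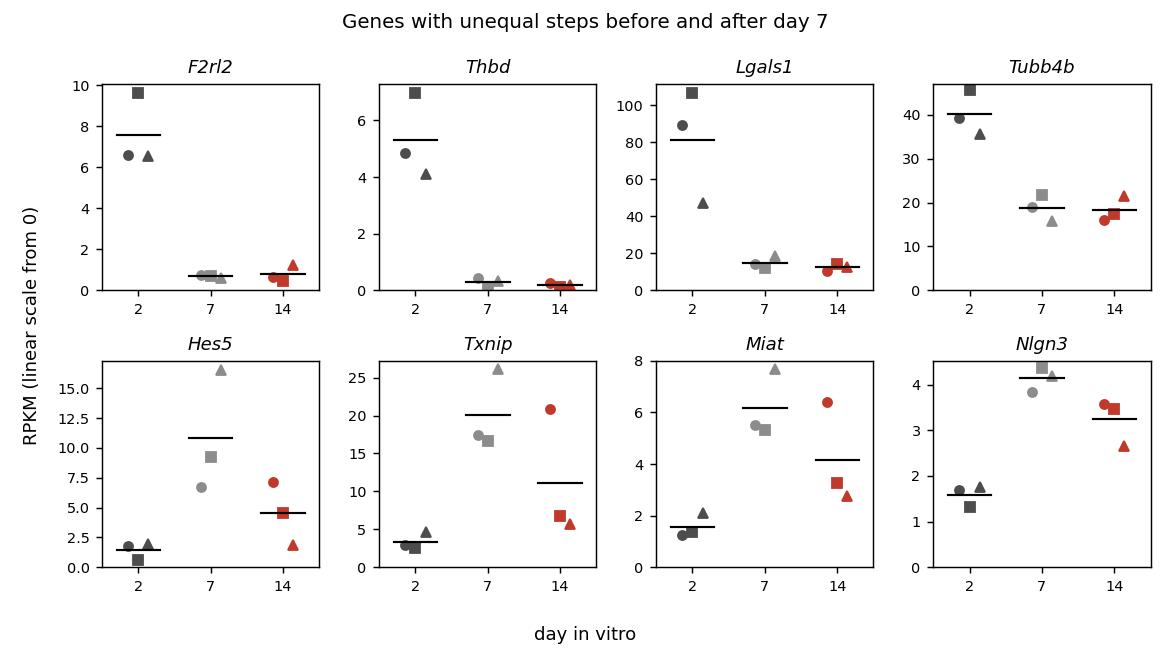
RPKM (vertical axis of each panel, linear from 0) in single libraries on days 2, 7 and 14 (horizontal axis) of 8 genes whose steps before and after day 7 differed; circles, squares and triangles are replicates 1, 2 and 3, and bars are means. The upper 4 genes fell to near their day 14 level by day 7, and the lower 4 had their highest mean on day 7.

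Genes that overlap a neighbour are uncertain, since the sources used here do not say whether reads were counted by strand. Among the genes with values above this concerns Cryab, Aqp4, Mt2, Selenop, Tril, Wnt5a, Slc6a11, Slc1a2, Dio2, Tnc, Gng3, Nefl, F2rl2, Phlda1, Pfkp, Vcan, Cp, Cd44, Ptx3, Timp3, Dnmt1, Smc2, Ccnd1, Egfr, Insr, Dll1, Nop56, B2m, Scd2, Acly, Lrp1, Bub3, Miat, Txnip, Tubb4b, Hes5, Nlgn3, Cdkn1a, Gfap, Axin2, Bhlhe40, Bhlhe41, Hmgcs1, Mki67, Ncapg, Olig1, Sox2, Tpm4, Map1b and Clcf1.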

How the data were processed

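RNA-seq of cultured mouse cortical astrocytes was analysed from 1 deposited table of 54429 entries in 25 libraries, all of them mapped to groups by their titles. Total RNA had been amplified and made into libraries with an Ovation RNA-seq V2 kit, followed by a NEBNext Ultra kit, per the labels' protocols. Per the submitters' processing notes, the authors used STAR, HTSeq, edgeR and limma with GRCm38; the sources used here give no version or role for these, no annotation and no strand setting. The deposited values are RPKM. In these, low values were whole multiples of 1 read for 99.02 to 99.27% of values of at most 20 reads (tolerance 0.1), which gave the read totals. The length used was the gene span: with spans, RPKM times length summed to 999128 to 1002611 per library, and with exons to 377054 to 519436. These sums give the length but do not show whether reads on introns were counted. Division by the span lowers the values of genes with long introns. The libraries are not normalised for composition.

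Symbols were matched to GENCODE M21 (GRCm38), 53713 of 54429 (98.68%); 26 entries read as dates and 4 were repeats. No 2 libraries were near-duplicates (highest correlation 0.947). Genes with at least 1 RPKM in at least 2 libraries (13850) were tested with limma 3.58.1 (R 4.3.3) on log2(RPKM + 1), with group means of all 9 groups, 16 residual degrees of freedom, and empirical Bayes moderation with trend and robust settings. P-values were adjusted by Benjamini-Hochberg over all tested genes, and genes below 0.05 were called. The step difference used the same fit. The fit was also run on simulated counts. These had the same relative spread for every gene, with no outlying library and no shift in the share of mitochondrial reads. The simulation therefore cannot show how such features affect the calls. Tables were made with pandas 2.3.3 and numpy 2.4.6 in Python 3.11.15, and figures with matplotlib 3.10.9. Promoters came from RefSeq (GRCm38.p6).

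The members and gene lists were chosen with earlier results of these data known. The genes named are up to 15 per direction with the largest change among called genes that reached 5 RPKM in their higher group without overlap of libraries, predicted genes and clones left out; the 4 members of each list with the smallest p; the 2 with the highest level; a set of astrocyte, growth factor and P53 genes; and up to 6 per direction for the step difference. Other genes named were picked with their values known. Alternatives changed the pseudocount, filter, scaling, libraries fitted, replicate block, moderation, weights and the test (voom on recovered reads), and left out each library in turn.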

Additional observations from a re-analysis of the deposited data

How the results depend on the processing

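The 3208 calls were 1267 with a filter of 5 RPKM, 1287 in the 9 libraries of days 2, 7 and 14 alone and 366 in the 6 libraries of days 2 and 14 alone, and 2080 to 3376 when single libraries were left out. In the same order, the higher calls (769) were 345, 340, 113 and 490 to 856, and 1204 with median-of-ratios scaling. The lower calls (2439) were 922, 947, 253 and 1590 to 2564, with 1140 by median-of-ratios scaling, 1204 by quantile normalization and 1396 with scaling without mitochondrial genes, an alternative chosen after seeing the data. Rises of at least 1 in log2 (143) numbered 326 with a pseudocount of 0.1, 63 in 6 libraries, 345 by voom on recovered reads, and 108 to 188 with a library left out. Falls of that size (215) numbered 526 with the pseudocount, 111 by median-of-ratios scaling, 120 by quantile normalization, 107 in 6 libraries, 633 by voom, 129 without mitochondrial genes, and 143 to 270 with a library left out. Step differences (76) numbered 32 with the filter, 46 by median-of-ratios scaling, 49 by quantile normalization, 0 in 9 libraries, 199 with array weights, and 21 to 217 with a library left out; 6 libraries give no such value. Of these, day 14 replicate 1 gave the lowest count of calls and the highest count of step differences when left out. The cause of these shifts was not tested, beyond fewer genes or libraries in the fit. Under quantile normalization the change of mt-Nd1 was -0.94 (adjusted p = 0.0383) and that of mt-Cytb -0.41. Of 172 named genes with a call, 112 lost it in 6 libraries, 71 in 9 libraries, 27 without day 14 replicate 1, 24 without day 2 replicate 2 and none with the pseudocount or plain empirical Bayes.

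With the replicate number as a block, the calls were 2774, 649 higher and 2125 lower, and the step differences 10; 10 of the 172 named genes lost their call. The block also moved the mitosis count from 21 to 8 and gave 4 lower histone genes where none had passed. Same-numbered libraries of days 2 and 14 correlated at 0.00636, 0.118 and 0.0627 in their deviations from the group means. Libraries of different number correlated at -0.146 to 0.0752. Values this small cannot show whether the numbers pair the samples, and the main fit used no pairing.

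At a depth of 4325729 reads or more, a few reads decide a value near 1 RPKM in genes with a short span. In genes with a long span the same RPKM rests on more reads, since the length used was the gene span.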
